A study of Mus musculus with 6 samples.

Results

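The genes of glucose uptake, glycolysis and gluconeogenesis were followed in the colon of mice that lack a receptor for short-chain fatty acids. The set was a list of 31 genes chosen by function, from glucose transporters to the oxygen-regulated factor Hif1a, with every isoform of a step that the list holds. Of these, 29 were named by at least 1 probe set of the array, among 18194 named genes in all, and Gpi1 and Eno1 were not analysed here. One probe set was kept per gene, the one with the highest mean over the 6 arrays. Of the 29 genes, 26 passed a filter on weak signal and were tested, and Pfkfb3, Pgam2 and Eno2 did not pass it.

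All mice were C57BL/6, 6 to 8 weeks old, and had ethanol injected into the rectum, and the colon was collected 24 h later. The 3 genotypes were wild type (WT), a GPR41 KO and a GPR43 KO, and each had 2 arrays. Ffar3 encodes GPR41 and Ffar2 encodes GPR43, both receptors for short-chain fatty acids, the fermentation products of gut bacteria. Every comparison is among ethanol-treated mice, and untreated colon was not analysed here. The deleted part of each allele and whether arrays of a group came from separate mice are not given in the sources used here, so p-values measure only the spread between these samples, which may be technical.

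Glycolysis turns glucose into pyruvate, and lactate dehydrogenase turns pyruvate into lactate when oxygen is short or when cells favour fast flux. Most steps have several isoforms encoded by separate genes and used in different tissues, such as the muscle and neuronal forms of enolase. Colon epithelium lives at low oxygen beside the gut lumen and draws much of its energy from butyrate, a short-chain fatty acid, whereas neutrophils and activated macrophages rely largely on glycolysis. Hypoxia-inducible factor (HIF), whose oxygen-regulated alpha subunit is the product of Hif1a, induces many glycolytic genes.

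Values are the authors' MAS5 signals on a linear scale, already scaled to a common trimmed mean of 500.0. Changes are differences of log2(signal + 18) from a limma fit over all genes, given with the standard error (SE), n = 2 arrays per group. Median signals were 80.9 to 96.8 and the 3' to 5' ratio of Gapdh, a sign of RNA integrity, was 0.778 to 0.858 over the 6 arrays. The number of arrays limits the precision. Ffar2, the check of the GPR43 KO label, read 1194 and 1118 for WT, then 1857 and 1933 for GPR41 KO, on its brighter probe set. It stood at 1598 for the library labelled GPR43 KO replicate 1, but at 189.0 for GPR43 KO replicate 2. Of the GPR43 KO libraries, then, only replicate 2 had little Ffar2 signal, and the counts of calls and most changes of that group are also given without replicate 1. Ffar3 had no named probe set, which left the label GPR41 KO unchecked. In bulk colon, fewer cells of a type and less RNA per cell cannot be told apart.

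HIF binds DNA at a short core, and the letters ACGTG and GCGTG were searched on both strands in the 250 bases before the start sites of RefSeq (GRCm38.p6). Of the 27 genes with both signal and a promoter window, 21 (77.8%) held a match, against 41.5% of all 27025 genes with a window. For ACGTG alone it was 12 of 27 (44.4%), against 18.5% of all genes. A gene counted when any of its windows held a match, so genes with several windows had more chances. Of all 32851 windows, 38.6% held a match to either core. Neither windows per gene nor base composition was matched between the set and all genes. A match is a description of the letters, not a bound site, and CACGTG counts once on each strand. The windows of 4 genes are shown 5' to 3' on the gene's strand, with the matched letters of either strand in capitals (an opposite-strand match reads CACGT or CACGC). They are Pfkfb3 and Eno3, which had large differences between genotypes, and Ldha and Pgk1, textbook HIF targets whose signal differed little. The Pfkfb3 window (chr2:11502091-11502340, minus strand) is the one of its 2 windows with more matches, 3 in all.
Pfkfb3: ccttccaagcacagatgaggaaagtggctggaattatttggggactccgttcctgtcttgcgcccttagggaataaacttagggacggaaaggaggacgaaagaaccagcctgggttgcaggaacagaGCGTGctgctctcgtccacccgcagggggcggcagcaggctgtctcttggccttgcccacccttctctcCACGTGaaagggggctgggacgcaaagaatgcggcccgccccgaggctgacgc
The Ldha window (chr7:46845554-46845803, plus strand), the one of its 2 windows with more matches, held 5, the Pgk1 window (chrX:106186850-106187099, plus strand) 2, and the Eno3 window (chr11:70656926-70657175, plus strand) 1.
Ldha: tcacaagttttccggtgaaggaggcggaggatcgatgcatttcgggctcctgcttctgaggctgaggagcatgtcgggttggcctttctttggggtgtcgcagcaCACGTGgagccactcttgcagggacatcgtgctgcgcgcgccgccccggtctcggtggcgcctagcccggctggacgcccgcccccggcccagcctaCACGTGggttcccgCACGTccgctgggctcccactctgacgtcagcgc
Pgk1: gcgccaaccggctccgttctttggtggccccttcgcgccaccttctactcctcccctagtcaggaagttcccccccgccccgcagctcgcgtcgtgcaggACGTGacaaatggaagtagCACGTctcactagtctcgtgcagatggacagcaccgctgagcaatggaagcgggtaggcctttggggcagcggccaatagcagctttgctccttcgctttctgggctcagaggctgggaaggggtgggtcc
Eno3: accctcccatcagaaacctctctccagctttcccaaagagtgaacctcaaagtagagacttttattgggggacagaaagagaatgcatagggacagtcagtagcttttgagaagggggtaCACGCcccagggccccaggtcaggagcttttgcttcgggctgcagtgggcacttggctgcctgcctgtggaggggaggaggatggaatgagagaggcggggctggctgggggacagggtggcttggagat

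Between genotypes, Eno3 was far higher and Slc2a3 far lower in both KO groups than in WT, while 21 of the 26 tested genes differed by at most 0.5 on the log2 scale in each comparison. In GPR41 KO, 1 of 26 rose and 1 fell at an adjusted p under 0.05, where 1.85% of all 10916 tested genes rose, 3.11% fell and 4.96% changed either way. In GPR43 KO, 1 of 26 rose and 1 fell, where 1.55% of all genes rose, 2.41% fell and 3.96% changed either way. For the mean of both KO groups, 1 of 26 rose and 1 fell, where the shares of all genes were 3.2% and 3.79%, together 6.99%. These are the same genes each time, and the comparisons share the WT arrays, so the second is no independent repeat of the first. The median log2 change of the 26 genes was -0.08 in GPR41 KO and -0.00464 in GPR43 KO, beside 0.000505 and 0.03 over all genes tested. Of all genes, 84.8% and 84.9% lay within 0.5 of no change.

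Without the library labelled GPR43 KO replicate 1, the genes of the set called in GPR43 KO were again Eno3 and Slc2a3, while calls over all genes went from 432 to 222. Without WT replicate 1, 5 genes of the set were called in GPR41 KO (Eno3, Slc2a3, Hk3, Pck1 and Pkm), 3 in GPR43 KO (Eno3, Slc2a3 and Pkm) and 6 for the mean of both KO groups, Pfkl being the sixth. Calls over all genes rose as well in those fits, from 541 to 891, from 432 to 759 and from 763 to 1007. Without WT replicate 2, Hif1a joined Eno3 and Slc2a3 in GPR43 KO and for the mean of both KO groups, 3 genes each, where 240 and 356 of all genes were called.

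Between the KO groups, limma called 0 of 26 genes, and 0% of all 10916 genes. At an unadjusted p under 0.05 there were 2 of the 26 (Slc2a1 and Hk2, both with the lower signal in GPR43 KO) and 596 of all genes. All 26 genes differed by at most 0.5 on the log2 scale between the KO groups, as did 94.6% of all genes.

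**Figure D1:**
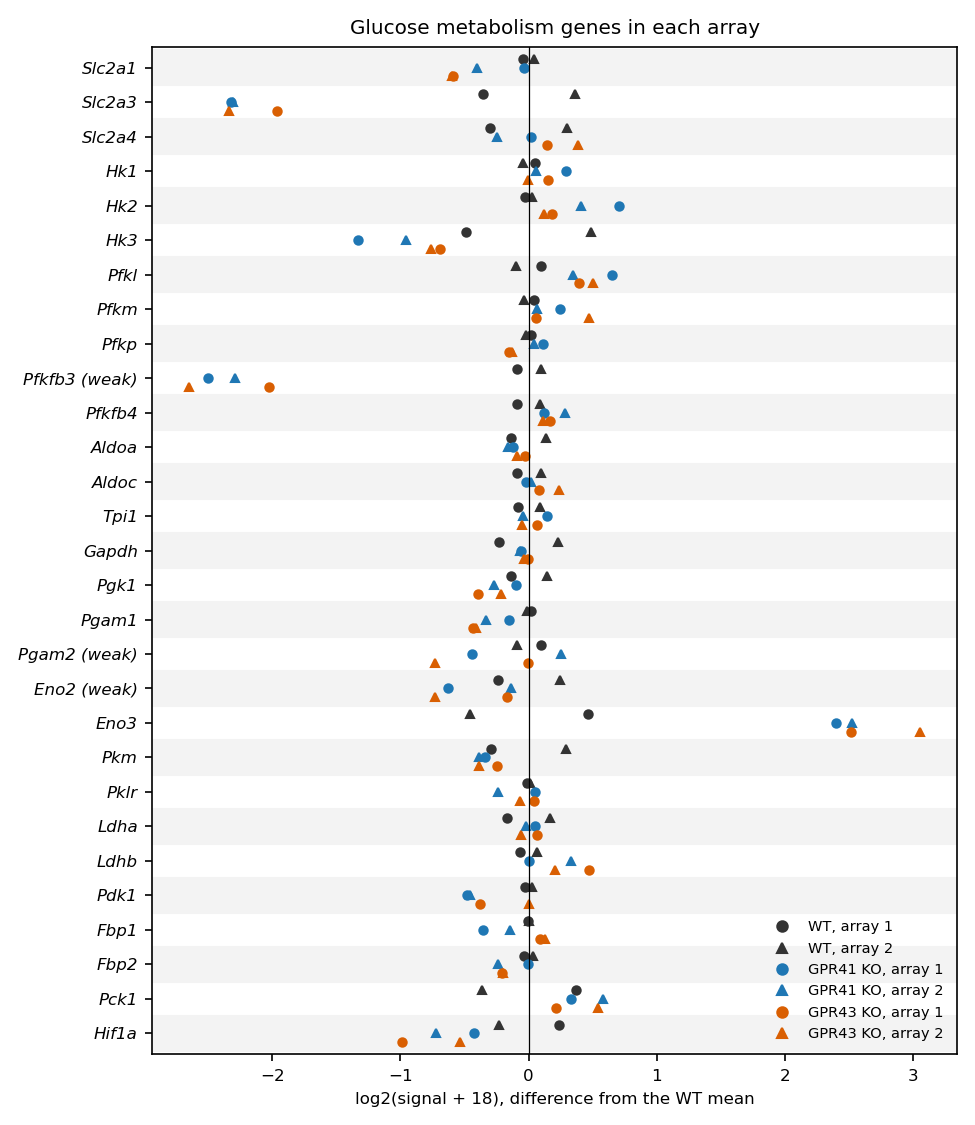
Each row is 1 gene and each point 1 array, plotted as log2(signal + 18) minus the WT mean of that gene, with colours for genotype and shapes for the arrays of a group; weak marks genes below the filter. Eno3 lies more than 2 above the WT mean and Slc2a3 and Pfkfb3 about 2 or more below it in all 4 KO arrays, while most other rows stay near 0.

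Glucose enters cells through facilitative transporters, of which Slc2a1 is the widespread form, Slc2a3 a high-affinity form of neurons and white blood cells, and Slc2a4 the insulin-regulated form of muscle and fat. Slc2a3 (chr6:122727809-122802363) read 734.3 and 1221 for WT, 174.8 and 176.9 for GPR41 KO, then 229.1 and 173.1 for GPR43 KO. All 4 KO arrays lay far below both WT arrays, with no overlap. Log2 changes were -2.32 ± 0.27 for GPR41 KO (adjusted p = 0.0022) and -2.15 ± 0.27 for GPR43 KO (adjusted p = 0.00418). Leaving out the library labelled GPR43 KO replicate 1 gave -2.34 (adjusted p = 0.0114). The call was kept with any 1 array left out. Slc2a3 has 4 probe sets, of which 3 were lower in all 4 KO arrays than in both WT arrays and the weakest, at 1.83 to 34.2, overlapped. On the second-brightest probe set the changes were -2.18 (adjusted p = 0.0811) and -1.78 (adjusted p = 0.157), and on the mean over probe sets the change in GPR43 KO was -1.02 (adjusted p = 0.192), so the call depends on the probe set used. The brightest probe set is of the type that can match several similar transcripts.

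Slc2a1 (chr4:119108745-119137330) read 3566 and 3775 for WT, 3572 and 2775 for GPR41 KO, then 2432 and 2420 for GPR43 KO. On this probe set the GPR43 KO arrays lay below both WT arrays, and the GPR41 KO arrays overlapped with them. The other 2 of its 3 probe sets were lower in all 4 KO arrays than in both WT arrays. Log2 changes were -0.22 ± 0.14 for GPR41 KO (adjusted p = 0.449) and -0.59 ± 0.14 for GPR43 KO (adjusted p = 0.0559), just short of the threshold, and with quantile normalization it passed (-0.60, adjusted p = 0.0461). Leaving out the library labelled GPR43 KO replicate 1, it was -0.60 with an adjusted p of 0.186. Slc2a4 ranged from 421.5 to 689 with overlapping WT and KO arrays.

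**Figure D2:**
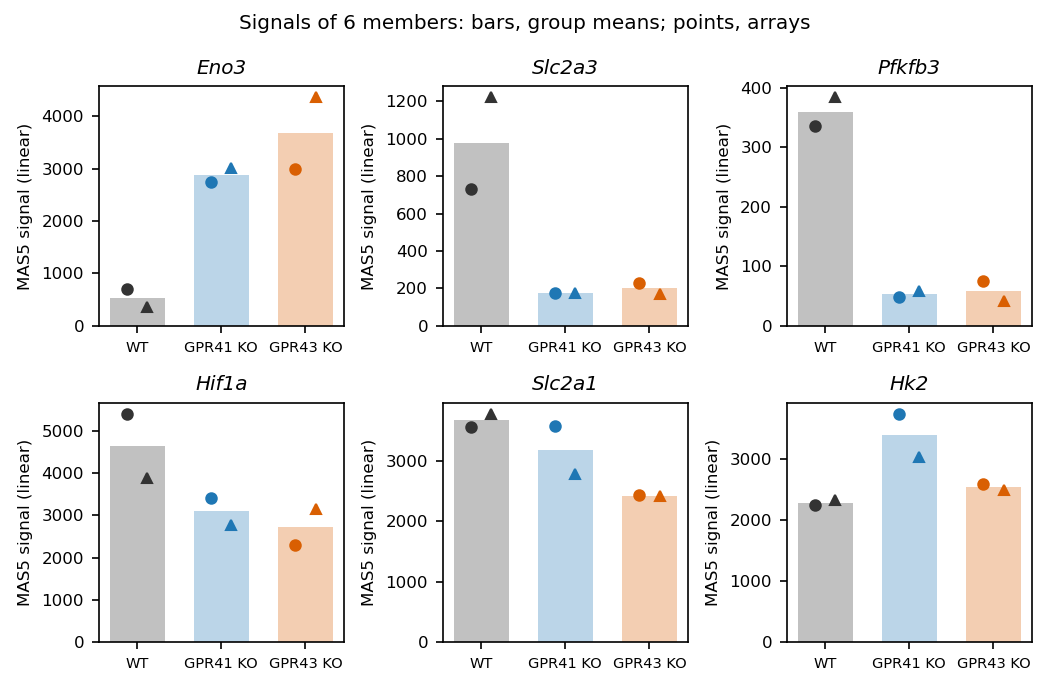
MAS5 signal on a linear axis from 0 for 6 genes, with bars for group means and points for the 2 arrays of WT, GPR41 KO and GPR43 KO. Eno3 has group means of 535.5, 2879 and 3676, Slc2a3 of 977.8, 175.9 and 201.1, and Pfkfb3 of 359.7, 53.8 and 58.4.

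Hexokinases trap glucose in the cell as its phosphate: Hk1 is the widespread form, Hk2 the form of muscle, fat and highly glycolytic cells, and Hk3 a form found mainly in white blood cells. Hk2 read 2242 and 2324 for WT, 3734 and 3029 for GPR41 KO, then 2594 and 2487 for GPR43 KO. All KO arrays were above both WT arrays, the GPR41 KO arrays most. Log2 changes were 0.56 ± 0.13 for GPR41 KO (adjusted p = 0.0523) and 0.15 ± 0.13 for GPR43 KO (adjusted p = 0.576), neither past the threshold, and the difference between the KO groups was -0.40 ± 0.13 (adjusted p = 0.87).

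Hk3 was weak, with 175.6 and 361.4 for WT, 89.9 and 121.4 for GPR41 KO, then 149.4 and 141.5 for GPR43 KO. All KO arrays were below both WT arrays, and the WT arrays themselves were far apart. Log2 changes were -1.14 ± 0.35 for GPR41 KO (adjusted p = 0.115) and -0.73 ± 0.35 for GPR43 KO (adjusted p = 0.294). It passed in GPR41 KO without WT replicate 1 (-1.63, adjusted p = 0.0234) or on the mean over probe sets (-1.27, adjusted p = 0.0436). On its second probe set it passed in both groups (-1.39, adjusted p = 0.0499, and -1.51, adjusted p = 0.0422). Hk1 stood at 2543 to 3219, with GPR41 KO arrays just above both WT arrays and GPR43 KO arrays that overlapped with WT. The other of its 2 probe sets was higher in all 4 KO arrays.

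Phosphofructokinase commits sugar to glycolysis, with liver (Pfkl), muscle (Pfkm) and platelet (Pfkp) subunits. Pfkl read 3161 and 2754 for WT, 4632 and 3750 for GPR41 KO, then 3883 and 4188 for GPR43 KO, and its KO arrays were all above WT. The log2 change was 0.50 ± 0.14 (adjusted p = 0.091) and 0.45 ± 0.14 (adjusted p = 0.127), and 0.47 ± 0.12 (adjusted p = 0.0552) for the mean of both KO groups. With the library labelled GPR43 KO replicate 1 left out, the change for GPR43 KO was 0.50 (adjusted p = 0.263). Only 1 of its 3 probe sets was higher in all 4 KO arrays. Pfkm gave 503.7 to 531.7 in WT and 539.2 to 725.1 in the KO arrays, with log2 changes of 0.15 ± 0.19 (adjusted p = 0.708) and 0.26 ± 0.19 (adjusted p = 0.481), the latter 0.47 (adjusted p = 0.347) with that library left out.

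Pfkp read 3826 and 3728 for WT, 4072 and 3896 for GPR41 KO, then 3388 and 3447 for GPR43 KO. On this probe set the GPR41 KO arrays thus lay above WT and the GPR43 KO arrays below, but the difference between the KO groups, -0.22 ± 0.11, did not pass (adjusted p = 0.87). Its other probe sets did not repeat the split, with differences of 0.24 and 0.10 on 1 and -0.26 and -0.53 on another.

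Pfkfb3 and Pfkfb4 encode bifunctional enzymes that set the level of the sugar bisphosphate that activates phosphofructokinase, and Pfkfb3 is the strongly synthesising, inducible form. Pfkfb3 (chr2:11471430-11554071) read 335.3 and 384.0 for WT, 48.6 and 59.0 for GPR41 KO, then 74.7 and 42.1 for GPR43 KO. The WT arrays lay far above the KO arrays, whose signals were weak, and the other of its 2 probe sets was also lower in all 4 KO arrays. The filter is on the mean of log2(signal + 18), which the weak KO arrays pull below the limit for this gene, so it was outside the main test. In a fit without the filter, in which 2.48% of genes were called in GPR41 KO (1.65% lower) and 1.95% in GPR43 KO (1.29% lower), its log2 change was -2.40 ± 0.36 (adjusted p = 0.0112) and -2.34 ± 0.36 (adjusted p = 0.0154).

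The Pfkfb3 call was lost in GPR41 KO without WT replicate 2 (adjusted p = 0.105) and without either GPR41 KO array (0.0985 for replicate 1 and 0.0686 for replicate 2). In GPR43 KO it was lost without WT replicate 2 (adjusted p = 0.129) or GPR43 KO replicate 2 (0.130). With the library labelled GPR43 KO replicate 1 left out it was -2.65 (adjusted p = 0.0485). A floor of 18 in place of the added 18 gave adjusted p = 0.115 and 0.125. Pfkfb4 gave 714.0 and 809.2 in WT and 822.1 to 931.5 in the KO arrays, with log2 changes of 0.20 ± 0.15 (adjusted p = 0.505) and 0.14 ± 0.15 (adjusted p = 0.654).

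The middle of the pathway differed little. Aldolase splits the sugar bisphosphate, and Aldoa, its main form, ranged from 22495 to 27622 over the 6 arrays, and Aldoc, the brain form, from 601.4 to 760.7. Tpi1, which interconverts the triose phosphates, ranged from 14000 to 16440. Gapdh, read only by control probe sets of the array, ranged from 35453 to 48760, and WT replicate 1 and 2 marked both ends of that range. WT and KO arrays overlapped in all of these genes on the probe set kept, while 2 of 5 probe sets of Aldoa were lower in all 4 KO arrays and 1 of 2 of Aldoc was higher. Pgk1, the first ATP-forming step, read 29015 and 35309 for WT, 29944 and 26567 for GPR41 KO, then 24348 and 27566 for GPR43 KO. Its log2 changes were -0.18 ± 0.15 (adjusted p = 0.564) and -0.30 ± 0.15 (adjusted p = 0.302). Of its 3 probe sets, 1 other than the one kept was lower in all 4 KO arrays, with differences of -0.30 in both groups. The probe sets kept for Aldoa, Tpi1 and Pgk1 are of a type that can also bind near-identical sequences, and these genes have processed pseudogenes, so their values are uncertain to that extent. The Pgk1 probe set that was lower in all 4 KO arrays is not of that type.

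Phosphoglycerate mutase and enolase move and activate the phosphate that pyruvate kinase then uses. Pgam1, the widespread mutase, read 6666 and 6530 for WT, 5945 and 5222 for GPR41 KO, then 4889 and 4948 for GPR43 KO. All KO arrays were below WT, with log2 changes of -0.24 ± 0.12 (adjusted p = 0.301) and -0.42 ± 0.12 (adjusted p = 0.0878), neither past the threshold, and with the library labelled GPR43 KO replicate 1 left out the latter was -0.41 (adjusted p = 0.287). Pgam2, the muscle form, was at background level with signals of 2.97 to 23.3.

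Eno3, the muscle enolase (chr11:70653125-70662513), read 705.8 and 365.1 for WT, 2750 and 3007 for GPR41 KO, then 2992 and 4359 for GPR43 KO. Every KO array was several times higher than either WT array, and the WT arrays differed from each other more than the GPR41 KO arrays did. Log2 changes were 2.46 ± 0.28 for GPR41 KO (adjusted p = 0.0022) and 2.79 ± 0.28 for GPR43 KO (adjusted p = 0.0015), ranks 6 and 1 among the rises of all 10916 genes. Leaving out the library labelled GPR43 KO replicate 1 gave 3.06 (adjusted p = 0.00363), and over all single arrays left out it ran from 2.00 to 2.92 in GPR41 KO and from 2.33 to 3.24 in GPR43 KO. It passed the threshold in each of these fits. Eno3 has 1 probe set, so no second reading of the gene was at hand. Eno2, the neuronal enolase, was weak, with 120.9 and 176.5 in WT and 80.9 to 131.1 in the KO arrays, which overlapped.

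Eno3 is a muscle enzyme in textbooks, so the muscle markers stand beside it. Of 19 named skeletal muscle markers, only Ckm and Acta1 passed the filter. Ckm gave 386.1 and 543.9 in WT and 594.0 to 813.8 in the KO arrays, and Acta1 gave 419.2 and 369.0 in WT and 451.8 to 681.4 in the KO arrays, so both were higher in all 4. The fast myosins Myh1, at 2.97 to 16.7, and Myh4, at 8.42 to 33.2, were at background level in all 6 arrays. Among the other weak markers, Myh2 read 28.3 and 52.0 in GPR43 KO and at most 9.9 elsewhere. Myoz1 read 36.3 to 42.4 in WT and 74.1 to 157.7 in the KO arrays. Of the 19, 1 was lower in all 4 KO arrays than in both WT arrays, where 15.2% of all tested genes were. The summed signal of the 19 was 1618 to 1723 in WT, 1639 to 2178 in GPR41 KO and 2036 to 2313 in GPR43 KO. For 12 smooth muscle markers it was 93729 to 111049, 120331 to 138602 and 134288 to 158600, and for 14 absorptive colonocyte markers 267398 to 297984, 362383 to 365105 and 349540 to 407078. Both of the latter lists were higher in every KO array than in either WT array, by less than Eno3 was, and their part in the Eno3 result was not tested.

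Pyruvate kinase makes ATP and pyruvate, with Pkm in most tissues and Pklr in liver, red cells and gut. Pkm read 11723 and 17539 for WT, 11290 and 10972 for GPR41 KO, then 12072 and 10965 for GPR43 KO. WT replicate 2 stood apart from the other 5 arrays. The log2 change was -0.37 ± 0.18 (adjusted p = 0.316) and -0.32 ± 0.18 (adjusted p = 0.375). Without WT replicate 1 it was -0.66 (adjusted p = 0.0149) and -0.61 (adjusted p = 0.0238), so the call rests on which WT array is used. Pklr ranged from 748.7 to 916.0 without separation of the groups on its brightest probe set, but the other 2 of its 3 probe sets were higher in all 4 KO arrays.

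Lactate dehydrogenase has an A subunit (Ldha) that favours lactate and a B subunit (Ldhb) that favours pyruvate. Ldha read 27544 and 34645 for WT, 31883 and 30450 for GPR41 KO, then 32301 and 29676 for GPR43 KO. The KO arrays all fell between the WT arrays, so the difference between genotypes was smaller than the spread within WT. Ldhb ranged from 990.4 to 1088 in WT and from 1038 to 1444 in the KO arrays, and 1 of its 4 probe sets was lower in all 4 KO arrays. Pdk1 encodes a kinase that switches pyruvate dehydrogenase off. Pdk1 read 918.0 and 951.7 for WT, 664.5 and 676.7 for GPR41 KO, then 715.0 and 936.8 for GPR43 KO. On this probe set the GPR41 KO arrays of Pdk1 lay below WT and its GPR43 KO arrays did not separate from it. On its other probe sets the GPR41 KO differences were 0.12, -0.24 and 0.20, with arrays that overlapped WT.

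Fructose-bisphosphatase and Pck1 run the path backwards to glucose. Fbp1 read 219.3 and 220.0 for WT, 167.7 and 197.2 for GPR41 KO, then 234.6 and 241.9 for GPR43 KO. The GPR41 KO arrays lay below WT and the GPR43 KO arrays above, and the difference between the KO groups, 0.36 ± 0.23, did not pass (adjusted p = 0.895). Fbp2, the muscle form, gave 5625 and 5919 in WT and 4886 to 5746 in the KO arrays, with log2 changes of -0.12 ± 0.12 (adjusted p = 0.641) and -0.21 ± 0.12 (adjusted p = 0.395).

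Pck1, the enzyme that makes phosphoenolpyruvate from oxaloacetate, read 1163 and 692.4 for WT, 1132 and 1350 for GPR41 KO, then 1043 and 1313 for GPR43 KO. WT replicate 2 was low and WT replicate 1 lay among the KO arrays. The log2 change was 0.45 ± 0.24 (adjusted p = 0.346) and 0.38 ± 0.24 (adjusted p = 0.43), and in GPR41 KO 0.82 (adjusted p = 0.0374) without WT replicate 1. With the library labelled GPR43 KO replicate 1 left out, the GPR43 KO changes of Hk2, Hk3, Pfkfb4, Pgk1, Pkm, Fbp2 and Pck1 were 0.12, -0.76, 0.11, -0.22, -0.39, -0.20 and 0.54 (adjusted p = 0.436 to 0.845). For the 12 genes given above by their range or signals alone (Slc2a4, Hk1, Pfkp, Aldoa, Aldoc, Tpi1, Gapdh, Pklr, Ldha, Ldhb, Pdk1 and Fbp1), log2 changes against WT lay from -0.47 to 0.34, and the lowest adjusted p was 0.158.

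Hif1a (chr12:73901324-73947554) read 5393 and 3891 for WT, 3407 and 2772 for GPR41 KO, then 2299 and 3156 for GPR43 KO. All 4 KO arrays were below both WT arrays, which were themselves far apart. The log2 change was -0.57 ± 0.20 in GPR41 KO (adjusted p = 0.162), -0.76 ± 0.20 in GPR43 KO (adjusted p = 0.0797) and -0.67 ± 0.18 for the mean of both KO groups (adjusted p = 0.0587). In GPR43 KO it passed without WT replicate 2 (-0.997, adjusted p = 0.0384) and on the mean over its 4 probe sets (-0.96, adjusted p = 0.0314). Leaving out the library labelled GPR43 KO replicate 1 gave -0.54 (adjusted p = 0.317). Of its 4 probe sets, 2 were lower in all 4 KO arrays.

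**Figure D3:**
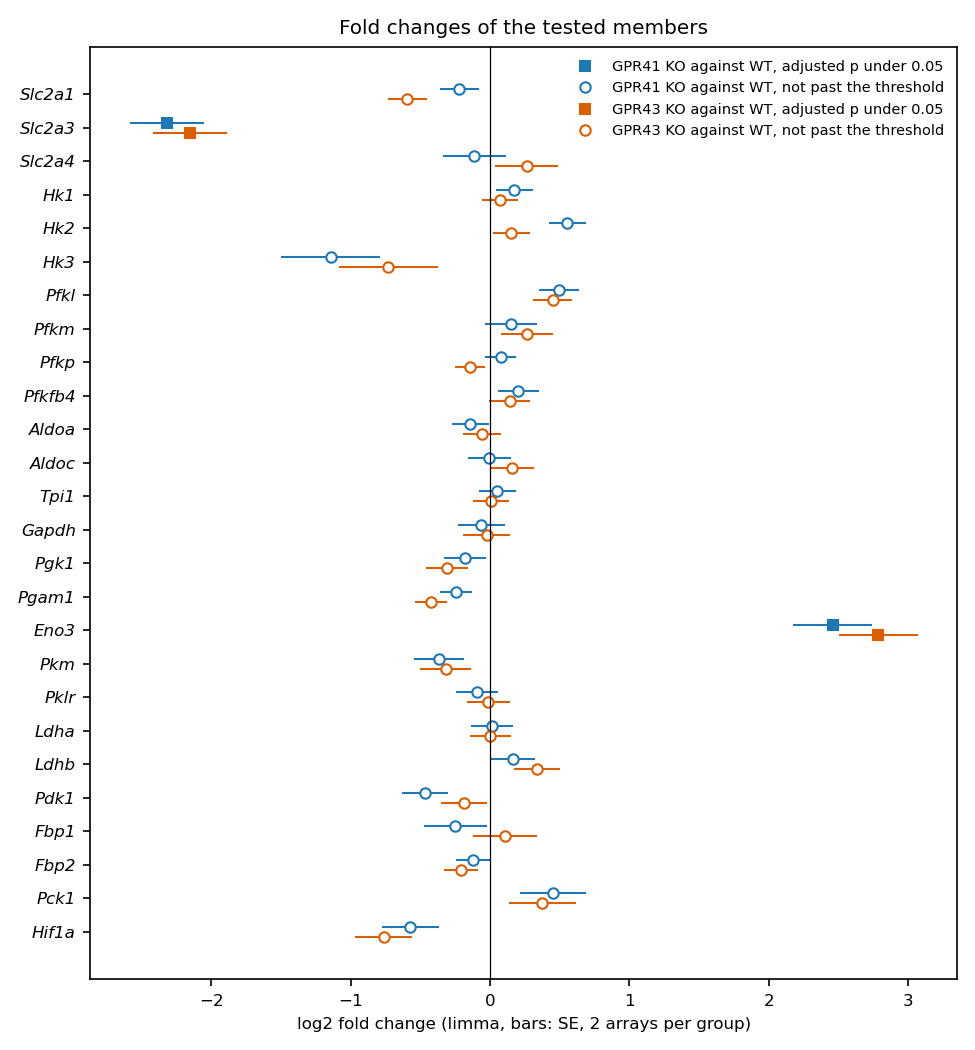
Log2 fold changes of the 26 tested genes in GPR41 KO (blue) and GPR43 KO (orange) against WT, with SE bars, 2 arrays per group, and filled squares for an adjusted p under 0.05. Slc2a3 and Eno3 alone are filled, and 21 of 26 genes in each comparison lie within 0.5 of 0.

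Counted by arrays alone, the 4 KO arrays were all above both WT arrays in 5 of the 26 tested genes (Hk2, Pfkl, Pfkm, Pfkfb4 and Eno3) and all below in 4 (Slc2a3, Hk3, Pgam1 and Hif1a), where 17.1% and 15.2% of all tested genes did so, together 32.4%. These shares are near the background. For GPR41 KO alone the count was 7 above and 7 below, where 24.6% and 25.3% of all genes, together 49.9%, did so. For GPR43 KO alone it was 7 and 8, where 27.7% and 22.9%, together 50.6%, did so. Between the KO groups the GPR43 KO arrays were above in 7 and below in 4, where 23.1% and 14.8% of all genes, together 37.8%, were.

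Neutrophil markers moved with the genotypes in the same direction as Slc2a3, Hk3 and Pfkfb3. Of 16 named neutrophil markers, with or without enough signal for the filter, 14 were lower in all 4 KO arrays than in both WT arrays, and Mpo and Elane overlapped. The summed signal of the 16 was 79165 and 145050 in WT, 1305 to 1355 in GPR41 KO and 1336 to 3455 in GPR43 KO. S100a8, a granulocyte calcium-binding protein, gave 32866 and 56389 in WT and 254.4 to 1202 in the KO arrays. Of 16 named macrophage and monocyte markers, 11 were lower in all 4 KO arrays, and their summed signal was 35103 to 55575 in WT, 15284 to 19383 in GPR41 KO and 20354 to 22701 in GPR43 KO. WT replicate 2 had the higher neutrophil sum and, on the probe sets kept, the higher Slc2a3, Hk3 and Pfkfb3 of the WT arrays. On its other probe set, Pfkfb3 was higher in WT replicate 1 (113.5 against 67.1). Hif1a and Pgam1, also lower in all 4 KO arrays, were higher in WT replicate 1 (5393 against 3891, and 6666 against 6530). The order of 2 arrays cannot decide on a cause. Other lists were lower in every KO array too. Summed signals of 17 enteric neuron and glia markers were 8360 to 10688 in WT, against 5274 to 7561 in KO arrays. For 15 squamous epithelium markers they were 3885 to 7261 against 2021 to 3062. For 9 endothelial markers they were 2575 to 3317 against 1825 to 2536. The smooth muscle and colonocyte sums given above were higher in every KO array. The part of any of these cells in the results for Slc2a3, Hk3 and Pfkfb3 was not tested.

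Isoforms of the same step were then contrasted within each array as the log2 ratio of their signals. The change of a ratio between genotypes can be read, but its level cannot, since probe sets differ in brightness. Among 13 pairs with both genes above the filter, the 4 KO arrays lay on one side of both WT arrays in 6. The share over all pairs of genes was not computed, and for single tested genes it was 32.4%. Pairs that share a gene, such as Slc2a3 or Hk3, are not separate results. An exact two-sided permutation test over 4 against 2 arrays cannot go below p = 0.0667. Of the 6 pairs, 5 reached this value, each with an adjusted p of 0.173 over the 13 pairs, so no pair passed. With the library labelled GPR43 KO replicate 1 left out, 7 of the 13 pairs lay apart, but leaving out an array can only keep or raise this count. With 2 arrays against 2 the smallest p is 0.333.

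The ratio of Slc2a1 to Slc2a3 was 2.25 and 1.61 in WT, 4.22 and 3.84 in GPR41 KO, and 3.31 and 3.67 in GPR43 KO on the log2 scale, a mean difference of 1.83. The ratio of Slc2a3 to Slc2a4 was 0.78 and 0.90 in WT and from -1.89 to -1.23 in the KO arrays, a difference of -2.31. In both contrasts the KO arrays lay wholly apart from the WT arrays.

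Among hexokinases, the ratio of Hk2 to Hk3 was 3.55 and 2.63 in WT, 5.12 and 4.45 in GPR41 KO, and 3.96 and 3.97 in GPR43 KO, a mean difference of 1.29. That of Hk1 to Hk3 differed by 1.06, and that of Hk1 to Hk2 by -0.23 with overlapping arrays. Among phosphofructokinases, the ratio of Pfkl to Pfkp was -0.27 and -0.43 in WT and from -0.05 to 0.28 in the KO arrays, a difference of 0.51. On the second-brightest probe sets that difference was -0.064, so its direction depends on the probe set. Pfkl to Pfkm (0.26) and Pfkm to Pfkp (0.24) overlapped.

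In the later steps, the ratio of Aldoa to Aldoc differed by -0.18 (exact permutation p = 0.133, adjusted p = 0.248), with the arrays apart by a small margin. Pkm to Pklr (-0.29), Ldha to Ldhb (-0.24) and Fbp1 to Fbp2 (0.09) overlapped between WT and KO. In 3 more pairs 1 gene was below the filter and no test was made. There the ratio of Eno2 to Eno3 was -2.38 and -0.98 in WT and from -5.47 to -4.34 in the KO arrays, and that of Pfkfb3 to Pfkfb4 was -1.05 and -1.04 in WT and from -3.81 to -3.24 in the KO arrays. In both contrasts the WT arrays lay wholly above the KO arrays. The contrast of Pgam1 to Pgam2 overlapped.

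**Figure D4:**
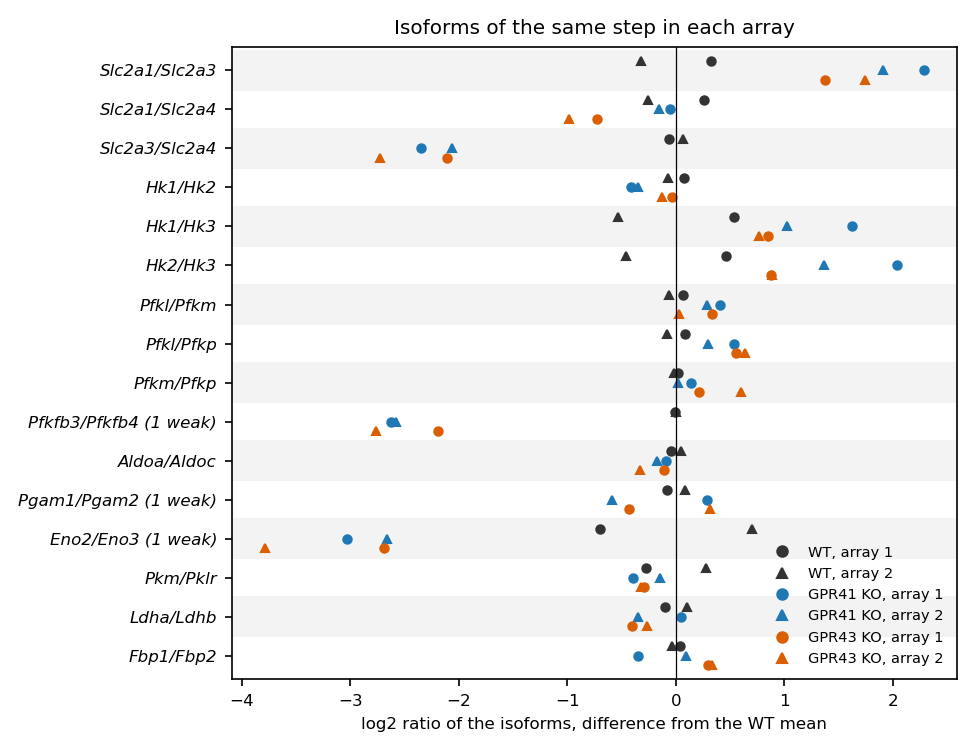
Log2 ratio of 2 isoforms of a step in each array, minus the WT mean of that ratio, for 16 pairs; 1 weak marks the 3 pairs with a gene below the filter. The pairs that hold Slc2a3, Hk3, Pfkfb3 or Eno3 spread widest, and the KO arrays of 6 of the 13 pairs above the filter lie wholly on one side of WT.

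Genes around the pathway were taken from lists of its neighbours, and the shares of all genes that rose (1.85% and 1.55%) or fell (3.11% and 2.41%) stand beside their counts. Of 11 tested other enzymes of glycolysis and gluconeogenesis, only Pcx, which makes oxaloacetate from pyruvate, rose in GPR41 KO (0.68 ± 0.15, adjusted p = 0.037), and 10 did not pass. In GPR43 KO, 0 of 11 passed by limma (Pcx 0.60 ± 0.15, adjusted p = 0.0646). The list's median was 0.02 and -0.02. The Pcx call was lost in 5 of the 6 fits with 1 array left out, the exception being WT replicate 1 (adjusted p = 0.0533 to 0.211).

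Among 15 genes of pyruvate entry and lactate export, Pdp2, a phosphatase that switches pyruvate dehydrogenase on, read 180.5 and 217.4 for WT, 375.1 and 411.1 for GPR41 KO, then 511.4 and 439.3 for GPR43 KO. It rose by 0.93 ± 0.20 (adjusted p = 0.0353) and 1.19 ± 0.20 (adjusted p = 0.0155). Slc16a3, a lactate exporter of glycolytic cells, fell in GPR41 KO (-1.56 ± 0.34, adjusted p = 0.0353) and was -1.22 ± 0.34 in GPR43 KO (adjusted p = 0.0877). The other 13 and 14 genes did not pass, with list medians of 0.17 and 0.13. The Pdp2 call in GPR41 KO was lost with any 1 array left out (adjusted p = 0.0553 to 0.182), and in GPR43 KO without either GPR43 KO array (0.0702 and 0.0986). The Slc16a3 call was lost in 3 of 6 such fits (0.104 to 0.188), those without WT replicate 2 or a GPR41 KO array, and in GPR43 KO Slc16a3 passed without WT replicate 1 (-1.59, adjusted p = 0.0358) and with median centring (adjusted p = 0.0481).

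Of 12 tested HIF subunits and regulators, 0 passed by limma in either KO group, with medians of 0.0064 and 0.04. Egln3, an oxygen-sensing hydroxylase that HIF itself induces, was -0.77 ± 0.24 (adjusted p = 0.114) and -0.65 ± 0.24 (adjusted p = 0.177). Epas1, the other main alpha subunit, ranged from 3779 to 4410 over the 6 arrays.

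Among 27 tested hypoxia-induced genes outside glycolysis, 5 fell, 0 rose and 22 did not pass in each KO group, where 3.11% and 2.41% of all genes fell, with medians of -0.28 and -0.09. The 5 were the same in both: Angptl4, a secreted lipase inhibitor, Bnip3, a mitophagy receptor, Lox, a collagen cross-linking enzyme, Hmox1, a haem-degrading enzyme, and Ero1a, an oxidase of the endoplasmic reticulum. Angptl4 read 1457 and 2231 for WT, 393.2 and 219.5 for GPR41 KO, then 396.5 and 259.8 for GPR43 KO, with changes of -2.54 ± 0.32 (adjusted p = 0.00299) and -2.42 ± 0.32 (adjusted p = 0.00491). Bnip3 changed by -1.37 and -1.25, Lox by -2.29 and -1.47, Hmox1 by -2.66 and -3.03, and Ero1a by -0.60 and -0.85. Lox read 332.4 and 533.6 for WT, then a weak 82.2 and 63.0 for GPR41 KO and 146.4 and 136.2 for GPR43 KO. Counted by arrays, 9 of the 27 were lower in all 4 KO arrays, where 15.2% of all tested genes were: these 5 with Adm (-1.06 and -1.01), Plod2 (-0.62 and -0.52), Ndrg1 (-0.40 and -0.32) and P4ha1 (-0.29 and -0.34), none of which passed the test. Only Higd1a was higher in all 4 (0.45, adjusted p = 0.151, and 0.53, adjusted p = 0.098), and the arrays of the other 17, among them Vegfa and Car9, overlapped. The neutrophil and macrophage sums given above were lower in the same arrays, and their part in these falls was not tested.

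With the library labelled GPR43 KO replicate 1 left out, the GPR43 KO changes were -2.71 for Angptl4, -1.35 for Bnip3, -3.81 for Hmox1 and -0.90 for Ero1a, all called, and -1.51 for Lox (adjusted p = 0.109). Of these 5, Angptl4 was called with any 1 array left out, but not on the mean over its probe sets (adjusted p = 0.0697 and 0.0528). Bnip3 was lost in GPR41 KO without GPR41 KO replicate 2 (adjusted p = 0.0549) and in GPR43 KO without GPR43 KO replicate 2 (0.103). Lox was lost only in GPR43 KO, without WT replicate 2 or either GPR43 KO array (0.109 to 0.198). Hmox1 was lost only in GPR41 KO, without WT replicate 2 or either GPR41 KO array (0.0559 to 0.0872). Ero1a was lost in GPR41 KO in 5 of 6 such fits, all but that without WT replicate 1 (0.066 to 0.223), and in GPR43 KO without WT replicate 2 or GPR43 KO replicate 2 (0.0516 and 0.105).

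Pygl, the glycogen phosphorylase of liver and white blood cells, read 724.9 and 1026 for WT, 242.0 and 175.8 for GPR41 KO, then 212.1 and 248.4 for GPR43 KO. It fell by 1.97 on the log2 scale (adjusted p = 0.00293) and by 1.83 (adjusted p = 0.00538), was called with any 1 array left out, and was the only 1 of 10 glycogen genes past the threshold in either group. In the pentose phosphate pathway, 1 of 7 genes passed, H6pd, an enzyme of the endoplasmic reticulum, at -1.02 ± 0.18 (adjusted p = 0.0143) and -0.88 ± 0.18 (adjusted p = 0.0328). With the library labelled GPR43 KO replicate 1 left out, Pygl was -1.72 (adjusted p = 0.0318) and H6pd -0.89 (adjusted p = 0.125) for GPR43 KO. The H6pd call was lost in GPR41 KO without WT replicate 2 or either GPR41 KO array (0.0773 to 0.1), and in GPR43 KO in 5 of 6 such fits, all but that without WT replicate 1 (0.0595 to 0.165). Of 19 genes of the tricarboxylic acid cycle, 0 passed by limma in either group, with medians of 0.24 and 0.22, above those of all genes. The colonocyte sums, higher in every KO array, moved with that list, and the neutrophil sums with Pygl, and their part in these values was not tested.

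**Figure D5:**
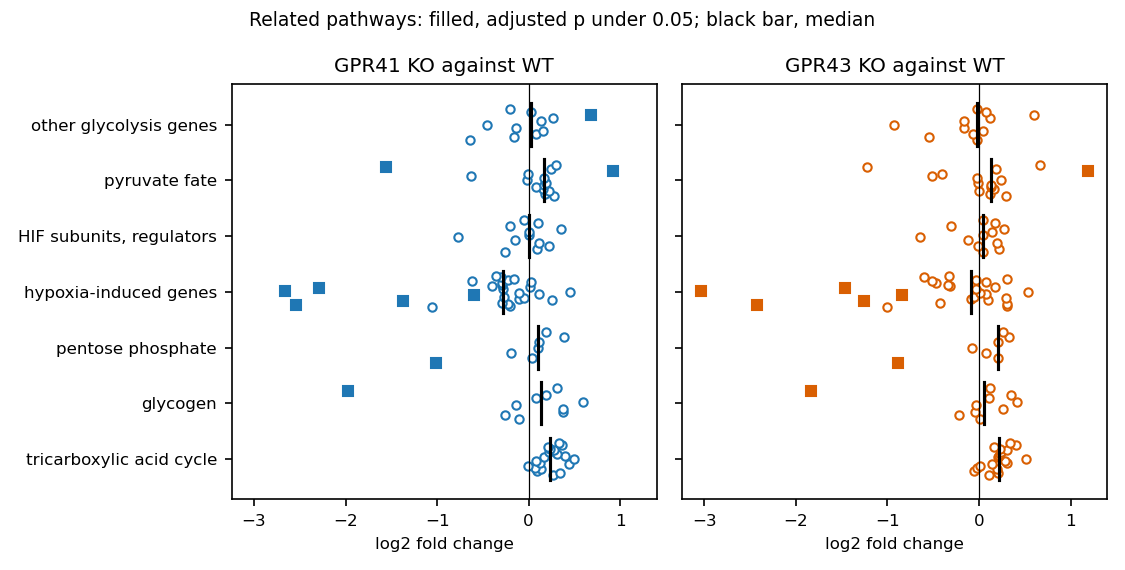
Log2 fold changes of single genes (points) in 7 neighbouring lists for GPR41 KO (left) and GPR43 KO (right) against WT, with filled squares for an adjusted p under 0.05 and a black bar for each list's median. Among hypoxia-induced genes 5 squares lie below 0 in each panel, while the tricarboxylic acid cycle list has open points only, with medians of 0.24 and 0.22.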

How the data were processed

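Total RNA from mouse colon (2 ug per labelling, per the labels) was hybridised to 1 Affymetrix array per sample. The authors deposited 1 linear MAS5 signal intensity per probe set (45101 in all); MAS5 is named in the submitters' processing notes, and its version and scaling steps are not given in the sources used here. A mean over probe sets without the lowest and highest 2% was 500.0 in each array. Signals near background are unstable in MAS5, and the added 18 draws weak values together.

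Symbols came from GEO's platform annotation, which can be old: 34958 probe sets had 1 gene symbol, 932 several and 9211 none. The brightest probe set per gene was kept, and 10916 of 18194 genes above the 40th percentile (a signal of about 125.9) were tested with limma 3.58.1 in R 4.3.3 (lmFit, eBayes with trend, 1 mean per group, 3 residual and 8.71 total degrees of freedom). Tests were two-sided, adjusted by Benjamini-Hochberg over all genes, with a threshold of 0.05. All members could be named, and of other lists those past the threshold, up to 4 per list and comparison, and genes counted in groups of at most 5; Epas1, Egln3, Vegfa, Car9, Higd1a, Adm, Plod2, Ndrg1, P4ha1, Myh2 and Myoz1 were named after their values were seen. Members, lists and tests were chosen with earlier results of these data known.

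The fit was tested on simulated data for GPR41 KO against WT, with 200 of 10916 genes shifted in each of 10 draws. It recovered 74.6% at a log2 shift of 1 and 99.6% at 2, and 8.35% and 7.14% of calls were false. Promoter windows and positions came from RefSeq (GRCm38.p6). Replicate numbers were not taken to pair arrays: deviations of same-numbered arrays correlated between -0.27 and 0.11. Alternatives covered the added constant, normalization, filter, probe set choice, the fit and each array left out; 1 of them, Pfkfb3 without the filter with arrays left out and other constants, was chosen after seeing the data.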

Additional observations from a re-analysis of the deposited data

How the results depend on the processing

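Eno3 kept its direction and its call under every alternative run. Slc2a3 kept its direction, and lost its call only on other probe set choices, as given with its values; it was not tested at the stricter filter. Among the values under alternatives of most genes given with a signed change and of the 5 isoform pairs at the smallest p, 811 kept direction and, where tested, side of the threshold, 76 lost the threshold, 12 gained it and 1 turned: the contrast of Pfkl to Pfkp, which was -0.064 on the second-brightest probe sets. For the 12 genes given by range, 18 of 24 changes lay on both sides of 0 over the alternatives (-0.49 to 0.86, lowest adjusted p = 0.0797). The cause of these shifts was not tested.

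With the filter at the 60th percentile, where Slc2a3 is not tested, 1 gene of the set (Eno3) was called in GPR41 KO, in GPR43 KO and for the mean of both, with 335 and 280 of all genes called in the KO groups. With second-brightest probe sets tested alongside, 4 were called in each of these comparisons (Eno3, Hk3, Pfkfb3 and Slc2a3), and 1 gene of all between the KO groups. Without an intensity trend, 360, 217 and 485 genes of all were called in GPR41 KO, in GPR43 KO and for the mean of both. With only the groups compared in the fit, 1 gene of all was called between the KO groups.

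With 1 array left out in turn, genes called ranged from 195 to 891 in GPR41 KO (541 with all arrays), from 129 to 759 in GPR43 KO (432), from 0 to 3 between the KO groups (0) and from 356 to 1007 for the mean of both (763). Genes of the set called ranged from 2 to 5, 2 to 3, 0 to 0 and 2 to 6. Isoform pairs apart ranged from 7 to 10, against 6 with all arrays, a count that leaving out an array can only keep or raise. Where a group kept 1 array, that array was assumed to vary like the other groups.

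The replicate numbers are not a pairing in the labels. With the replicate number as a block, 401, 295, 0 and 549 genes were called, and 2, 2, 0 and 2 genes of the set. The block ended the calls of Ero1a, Pcx, Pdp2 and Slc16a3 in GPR41 KO and of Lox and H6pd in GPR43 KO (adjusted p = 0.0585 to 0.0852), and all of these were also lost without the filter on weak signal. Bnip3 lost its call in GPR43 KO without an intensity trend (adjusted p = 0.0556).

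Signal over background limits Pfkfb3, Pgam2 and Eno2. The size of the Pfkfb3 difference depends on the added constant: it was -2.72 and -2.66 with 1 added and -1.78 and -1.74 with 72. For Lox the change was -2.53 and -1.57 with 1 added, and -1.78 and -1.21 with 72.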
